A study of Danio rerio with 12 samples.

Results

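The gluconeogenesis enzymes described here are 9 zebrafish genes: pck1, pck2, g6pca.1, g6pca.2, g6pcb, fbp1a, fbp1b, fbp2 and pcxa. They were picked by gene name among the 34028 genes of the deposited count table. RNA-seq was run on livers of krasV12 transgenic zebrafish aged 3 months, in 4 groups of 3 libraries each. Fish were treated with TDCIPP together with DOX, with DOX alone, with TDCIPP alone, or with DMSO. TDCIPP is a chlorinated organophosphate flame retardant, DMSO is the solvent control, and the labels do not spell out DOX. Every group carried the transgene, the control fish included. The labels used here name neither the promoter that drives the transgene nor whether a library is 1 fish or a pool, so the tests rest on the spread between libraries, which may in part be technical.

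Gluconeogenesis makes glucose from lactate, amino acids and glycerol, chiefly in liver and kidney. Most of its steps are glycolytic reactions run in reverse, but 3 glycolytic steps are bypassed by enzymes of its own. Pyruvate carboxylase (pcxa) and phosphoenolpyruvate carboxykinase (pck1 in the cytosol, pck2 in mitochondria) carry pyruvate to phosphoenolpyruvate. Fructose-1,6-bisphosphatase (fbp1a, fbp1b and the muscle-type gene fbp2) undoes the phosphofructokinase step, and the catalytic subunit of glucose-6-phosphatase (g6pca.1, g6pca.2, g6pcb) releases free glucose. In mammals the cytosolic carboxykinase and glucose-6-phosphatase genes are induced by glucagon and glucocorticoids and repressed by insulin.

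Libraries held 28621536 to 40877342 reads counted to genes. Levels below are CPM, the reads of a gene relative to the TMM-scaled library total, and differences are log2 fold changes from edgeR's quasi-likelihood test with Benjamini-Hochberg adjustment over 19160 genes, called at an adjusted p under 0.05. Hepatocyte markers were abundant in every library, with a summed level of 71089 to 77116 CPM in TDCIPP with DOX, 43435 to 76243 CPM in DOX, 76259 to 83380 CPM in TDCIPP and 71420 to 93031 CPM in DMSO. Some libraries stood apart by markers of other tissues. Summed oocyte markers reached 818 CPM in DOX replicate 3 and at most 89.2 CPM in any other library. Summed intestine markers were 521 CPM in replicate 3 of TDCIPP with DOX, 95 CPM in TDCIPP replicate 1 and 113 CPM in DMSO replicate 3, and at most 18.8 CPM elsewhere. Summed exocrine pancreas markers varied within every group. They were 187 to 1448 CPM in TDCIPP with DOX and 50.4 to 827 CPM in DOX. In TDCIPP they were 553 to 1097 CPM and in DMSO 482 to 2413 CPM. In each comparison with DMSO all 9 of these markers had log2 fold changes below 0, none called by edgeR. Summed neutrophil and macrophage markers were 111 to 161 CPM in TDCIPP with DOX and 44.1 to 95.8 CPM in DMSO, without overlap. They were 32.8 to 42.7 CPM in DOX and 62 to 170 CPM in TDCIPP. Of the 5 of these genes that were tested, none was called by edgeR in a comparison with DMSO. The part of the exocrine pancreas, neutrophil and macrophage markers in the values of the members was not tested. The 4 libraries singled out for oocyte or intestine transcripts were DOX replicate 3, TDCIPP replicate 1, DMSO replicate 3 and replicate 3 of TDCIPP with DOX. Results that turn on them are given with and without them. The other libraries were not free of these markers, with 89.2 CPM of oocyte markers in TDCIPP replicate 2 and 18.8 CPM of intestine markers in replicate 1 of TDCIPP with DOX. Whether groups overlap is stated for TMM-scaled CPM unless the deposited FPKM, which scale each library by its total, are named.

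Of the 9 members 7 passed the filter on low counts; g6pcb and fbp2 did not and are described by their reads. The 7 genes differed widely in how much they varied. Over the 12 libraries the highest CPM was 822 times the lowest for pck1 and 102 times the lowest for g6pca.2. It was 6.01 times for fbp1b, 5.43 times for g6pca.1, 2.68 times for fbp1a, 2.07 times for pck2 and 1.91 times for pcxa. These ratios include the differences between groups and are a description with no test.

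**Figure D1:**
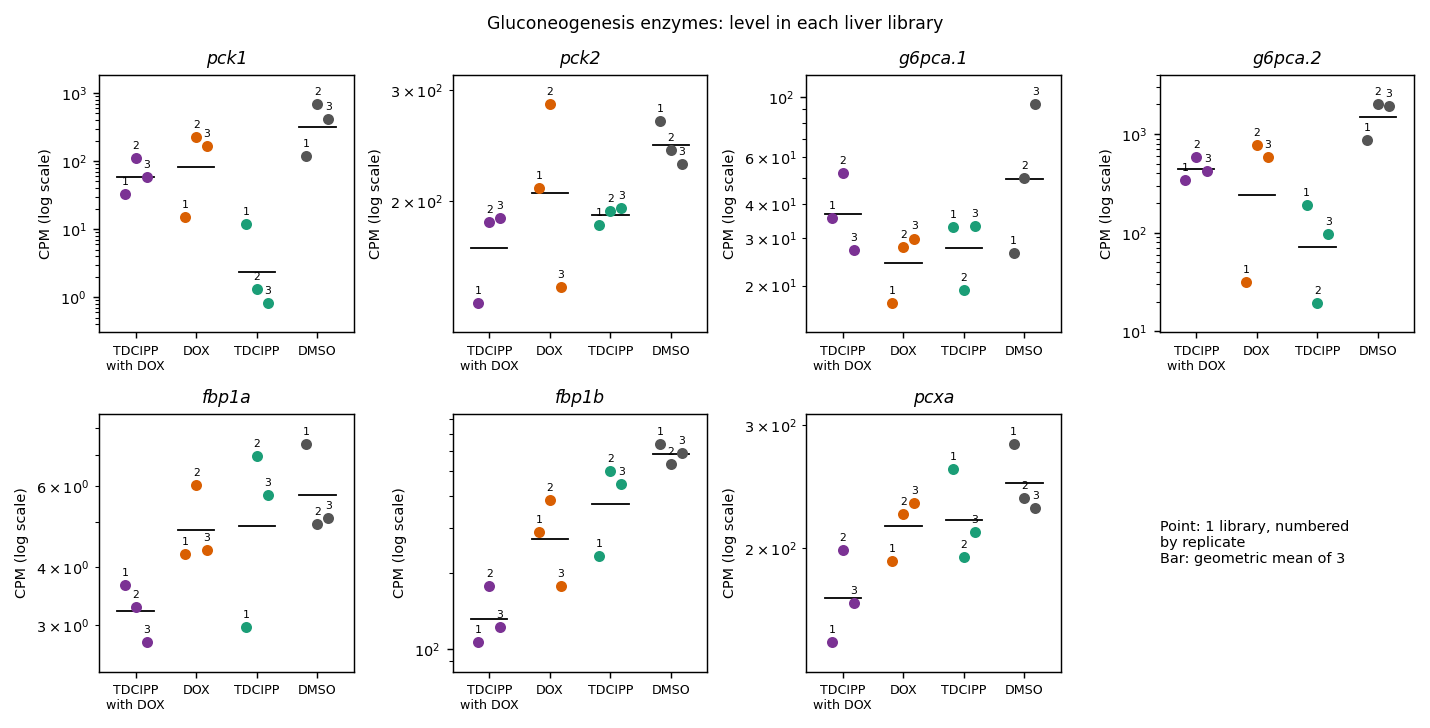
CPM of the 7 tested enzymes in each liver library (log axis; a point is 1 library, numbered by replicate, and a bar is the geometric mean of 3). The 3 TDCIPP libraries had 0.829 to 11.7 CPM of pck1, all below the 118 to 682 CPM of the DMSO libraries, while pck2 ranged from 138 to 285 CPM and pcxa from 147 to 282 CPM over the 12 libraries.

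Pyruvate carboxylase, encoded by pcxa (chromosome 21, positions 26733333 to 26970710 in the files' coordinates, whose build is not given in the sources used here), makes oxaloacetate from pyruvate in mitochondria. It had 147, 199 and 167 CPM in TDCIPP with DOX, 192, 224 and 232 CPM in DOX, 259, 194 and 211 CPM in TDCIPP, and 282, 236 and 228 CPM in DMSO. All 3 libraries of TDCIPP with DOX lay below all 3 DMSO libraries, and every other pair of groups set against each other overlapped. In deposited FPKM the same groups overlapped. Its log2 fold change between TDCIPP with DOX and DMSO was -0.54 ± 0.19 (SE; edgeR adjusted p = 0.0902), short of the threshold.

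The cytosolic carboxykinase gene pck1 (chromosome 6, positions 60055168 to 60062097), whose enzyme makes phosphoenolpyruvate from oxaloacetate, was the most variable member. It had 33.1, 109 and 57.4 CPM in TDCIPP with DOX, 14.9, 228 and 164 CPM in DOX, 11.7, 1.32 and 0.829 CPM in TDCIPP, and 118, 682 and 409 CPM in DMSO. Replicate 1 was the lowest library of its group in DMSO, in DOX and in TDCIPP with DOX, and the highest in TDCIPP. The TDCIPP libraries lay below all 9 others, with 453 reads in the 3 TDCIPP libraries together, against 25790 in the 3 DMSO libraries. The DOX libraries overlapped those of DMSO and of TDCIPP with DOX.

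The mitochondrial form pck2 (chromosome 24, positions 12920019 to 12938922) makes the same product and did not share this spread. It had 138, 185 and 188 CPM in TDCIPP with DOX, 210, 285 and 146 CPM in DOX, 183, 193 and 195 CPM in TDCIPP, and 268, 241 and 229 CPM in DMSO. The DMSO libraries lay above every library of TDCIPP and of TDCIPP with DOX, though in deposited FPKM they overlapped both. The 95% interval of its log2 fold change ran from -1.05 to -0.01 between TDCIPP with DOX and DMSO (edgeR adjusted p = 0.174, with an unadjusted p of 0.0454) and from -0.89 to 0.15 between TDCIPP and DMSO.

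Fructose-1,6-bisphosphatase reads came almost all from fbp1b (chromosome 5, positions 35458190 to 35462126). It had 107, 177 and 122 CPM in TDCIPP with DOX, 288, 387 and 177 CPM in DOX, 233, 501 and 446 CPM in TDCIPP, and 643, 533 and 588 CPM in DMSO. The DMSO libraries lay above all 9 others, and the TDCIPP with DOX libraries below all TDCIPP and DMSO libraries. DOX replicate 3, with 177 CPM, lay level with the highest library of TDCIPP with DOX. The paralog fbp1a (chromosome 5, positions 44833313 to 44843738) had 3.67, 3.29 and 2.76 CPM in TDCIPP with DOX, 4.27, 6.02 and 4.36 CPM in DOX, 2.97, 6.97 and 5.73 CPM in TDCIPP, and 7.4, 4.95 and 5.11 CPM in DMSO. The muscle-type gene fbp2, which lies 3593 bases from fbp1a on the same chromosome, had 9 reads in all. They fell in 2 libraries of TDCIPP with DOX and 1 of TDCIPP, and DOX and DMSO libraries had none.

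Glucose-6-phosphatase reads came mainly from g6pca.2 (chromosome 12, positions 6041575 to 6048286). It had 343, 586 and 422 CPM in TDCIPP with DOX, 31.9, 772 and 589 CPM in DOX, 190, 19.6 and 96.4 CPM in TDCIPP, and 863, 2002 and 1926 CPM in DMSO. The DMSO libraries lay above all 9 others and the TDCIPP libraries below all libraries of TDCIPP with DOX. DOX replicate 1 lay within the TDCIPP range while the other DOX libraries lay 18 or more times higher. Its neighbour g6pca.1 (positions 6023490 to 6033854, with 7720 bases between the pair) had 35.5, 52.2 and 27.1 CPM in TDCIPP with DOX, 17.3, 27.7 and 29.9 CPM in DOX, 33.1, 19.2 and 33.4 CPM in TDCIPP, and 26.4, 49.9 and 94 CPM in DMSO. Its groups overlapped in every comparison. The third gene, g6pcb on chromosome 3, had 30 reads in all and at most 9 in 1 library. How the authors' counting treated reads shared by such paralogs is not given in the sources used here, so splits between the g6pca pair and between the fbp1 genes carry that uncertainty.

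Levels of different genes were compared on the deposited FPKM scale, which divides reads by gene length, and within a group only. In TDCIPP with DOX, g6pca.2 led with a mean of 409 FPKM, then fbp1b with 190, pck2 with 70.5, pck1 with 55.4, pcxa with 53.1, g6pca.1 with 52.6 and fbp1a with 2.89 FPKM (n = 3). The ranges of pck2, pck1, pcxa and g6pca.1 overlapped from each to the next. In DMSO, g6pca.2 had a mean of 703 FPKM, fbp1b 409 and pck1 163 FPKM, and in DOX the same 3 genes led with 355, 303 and 94.7 FPKM. The ranges of g6pca.2 and fbp1b overlapped in both groups. In replicate 1 fbp1b was the highest member, with 491 FPKM in DMSO and 281 FPKM in DOX, against 427 and 20.2 FPKM for g6pca.2. In TDCIPP the order of the means differed: fbp1b led with 352 FPKM, its lowest library at 203 and the highest of g6pca.2 at 108 FPKM. In that group pck1 had the lowest mean of the 7 with 2.41 FPKM, below fbp1a at 2.95 FPKM with overlapping ranges. The lengths behind these values are the authors' and, for pck1, g6pca.1, g6pca.2, fbp1b and pcxa, were 1.26 to 1.84 times shorter than the length column of the same table. Dividing by that column instead would lower those 5 genes by the same factors.

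**Figure D2:**
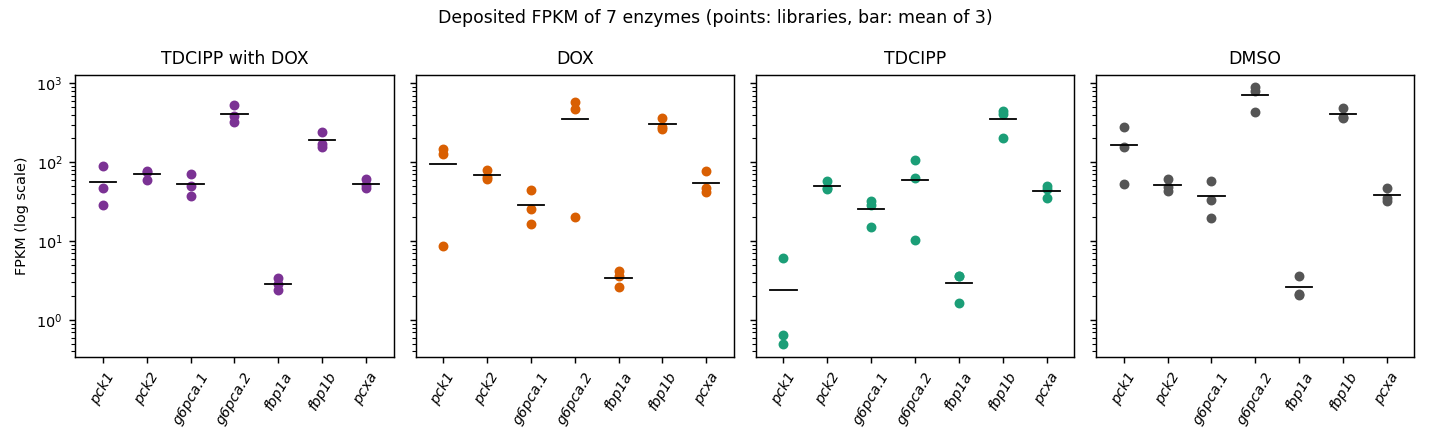
Deposited FPKM of the 7 tested enzymes within each group (log axis; points are libraries and bars the mean of 3). In the TDCIPP libraries fbp1b is above g6pca.2, while g6pca.2 has the highest mean in the other groups. In replicate 1 of DMSO and of DOX fbp1b is also above g6pca.2.

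With TDCIPP alone against DMSO, pck1 and g6pca.2 had the largest differences of the 7 members tested, and neither passed edgeR's test. The log2 fold change of pck1 was -6.45 ± 1.34 (SE), an 87.5-fold lower level, with an edgeR adjusted p of 0.156 and an unadjusted p of 0.000521. For g6pca.2 it was -3.97 ± 1.03, 15.7-fold lower, with an edgeR adjusted p of 0.229. In bulk RNA, fewer cells of a type and less RNA per cell cannot be told apart. No member was called, against 0.0418% of all genes called in either direction. At an unadjusted p under 0.05, pck1, g6pca.2 and g6pca.1 were lower, 3 of 7 members against 4.02% of all genes. The log2 fold change of g6pca.1 was -0.99 ± 0.43 (edgeR adjusted p = 0.482).

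The other enzymes had smaller differences from DMSO in the TDCIPP group. Log2 fold changes were -0.58 ± 0.34 for fbp1b, -0.37 ± 0.24 for pck2, -0.17 ± 0.19 for pcxa and -0.16 ± 0.33 for fbp1a (SE, edgeR, n = 3 each). The median over the 7 members was -0.58, and over all genes it was 0.02. Groups did not overlap for pck1, pck2, g6pca.2 and fbp1b, 4 of 7 members lower in TDCIPP, against 8.95% of all genes. In deposited FPKM this held for 2 of them, pck1 and g6pca.2, against 1.93% of all genes. DESeq2, run as an alternative, called pck1 (log2 fold change -6.5, adjusted p = 3.72e-08) and g6pca.2 (-4.01, adjusted p = 0.000691), while calling 2.27% of all genes. In the authors' deposited table both genes also had adjusted p-values under 0.05, 0.0165 for pck1 and 0.000198 for g6pca.2, among 0.247% of genes with a value.

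Endocrine pancreas transcripts were also lower in TDCIPP than in DMSO. The summed level of 7 markers, of which 4 passed the filter, was 0.195 to 1.04 CPM in TDCIPP, against 2.15 to 14.4 CPM in DMSO. The insulin gene ins had 0.0307, 0.555 and 0.0975 CPM in TDCIPP and 6.67, 11.4 and 1.61 CPM in DMSO. None of the 4 tested markers was called by edgeR in this comparison, and all 4 were lower at an unadjusted p under 0.05. In DOX replicates 1, 2 and 3 the summed level was 0.234, 0.073 and 0.701 CPM. The same libraries had 14.9, 228 and 164 CPM of pck1. The part of endocrine pancreas transcripts in the pck1 and g6pca.2 values was not tested. Without the 4 libraries singled out for oocyte or intestine transcripts, the log2 fold change between TDCIPP and DMSO was -8.52 for pck1 (edgeR adjusted p = 0.118) and -4.61 for g6pca.2 (0.218).

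**Figure D3:**
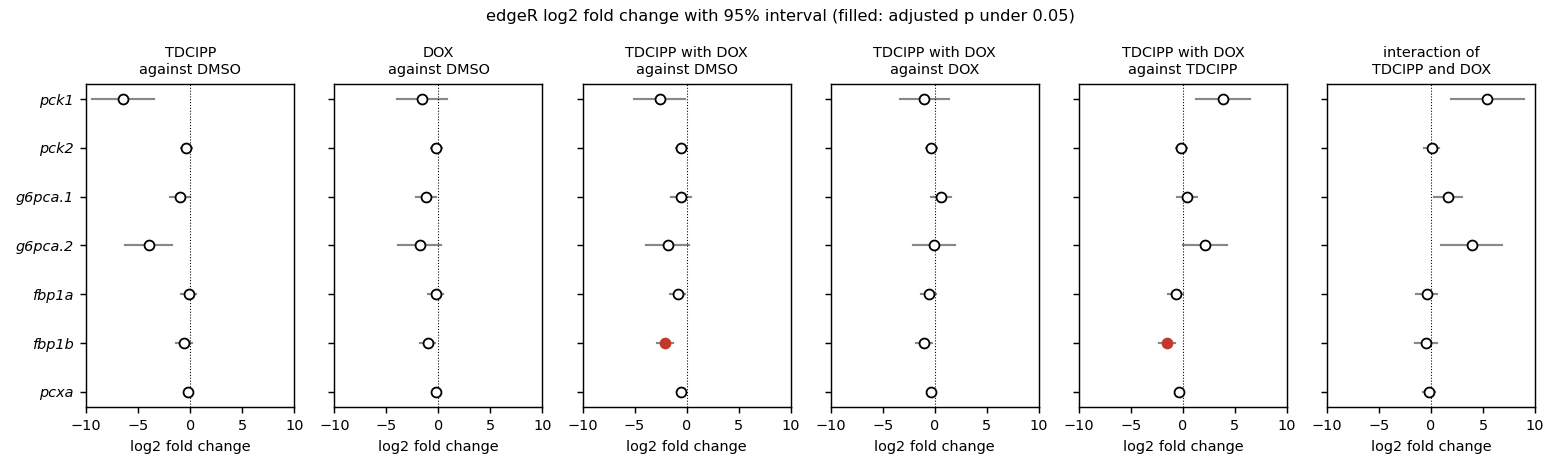
Log2 fold changes of the 7 tested enzymes in 5 comparisons and the interaction (point: edgeR estimate; line: 95% interval; filled: adjusted p under 0.05). The 2 filled points are fbp1b, at -2.12 in TDCIPP with DOX against DMSO and -1.54 in TDCIPP with DOX against TDCIPP.

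With DOX alone against DMSO, no member was called by edgeR, against 6.86% of all genes. The smallest adjusted p belonged to fbp1b, with a log2 fold change of -1.05 ± 0.34 (SE; edgeR adjusted p = 0.0882), followed by g6pca.1 with -1.19 ± 0.44 (0.12). These 2 members were lower at an unadjusted p under 0.05, against 10.4% of all genes. The larger differences of g6pca.2 (-1.78 ± 0.94) and pck1 (-1.57 ± 1.08) came with wide errors, and replicate 1 lay 10 or more times below the other DOX libraries for each gene. Log2 fold changes of pck2, fbp1a and pcxa lay between -0.25 and -0.2. Groups did not overlap for g6pca.2 and fbp1b, 2 of 7 members lower in DOX, against 12.3% of all genes. In deposited FPKM fbp1b alone was lower without overlap, against 3.68% of all genes, g6pca.2 overlapped, and pck2 was higher without overlap, against 35% of all genes. DESeq2 called fbp1b (adjusted p = 0.0306) and g6pca.1 (adjusted p = 0.0496) among 16.3% of all genes, while in the authors' deposited table no member was under 0.05. Of the 4 tested endocrine pancreas markers edgeR called 2 lower in DOX, and all 4 were lower at an unadjusted p under 0.05. So were 4 of the 6 tested intestine markers, none called. Of the 5 tested endothelium markers edgeR called 1 lower in DOX, and of the 5 tested red blood cell markers also 1. The part of these markers in the values of the members was not tested.

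Of the members, fbp1b fell when TDCIPP and DOX were given together, relative to DMSO. Its mean was 136 ± 36.9 CPM in TDCIPP with DOX and 588 ± 55.1 CPM in DMSO (SD, n = 3 each), a log2 fold change of -2.12 ± 0.35 (SE), 4.34-fold lower, with an edgeR adjusted p of 0.00412. It was the 1 member of 7 called, against 11.7% of all genes called, 6.37% lower. The call held under every alternative run, leaving out each of the 6 libraries included. With unadjusted library totals as the scale it was -1.11 (edgeR adjusted p = 0.0145), where the median of all genes moved to 1.11, against 0.1 with TMM. In the authors' deposited table fbp1b had an adjusted p of 3.32e-06.

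All 7 tested members had log2 fold changes below 0 in TDCIPP with DOX against DMSO, with a median of -0.84, against 0.1 for all genes. Under library totals 4 of them turned above 0 (pck2, g6pca.1, fbp1a and pcxa), and relative to the shifted median all 7 remained below. The log2 fold change was -2.6 ± 1.12 for pck1 (edgeR adjusted p = 0.161), -1.83 ± 0.94 for g6pca.2 (0.241), -0.84 ± 0.33 for fbp1a (0.127) and -0.53 ± 0.24 for pck2 (0.174). At an unadjusted p under 0.05, 5 of 7 members were lower, against 12.9% of all genes. Groups did not overlap for 6 of 7, the exception being g6pca.1, against 18% of all genes lower without overlap. In deposited FPKM this count was 1, fbp1b, against 2.99% of all genes. DESeq2 called pck1 (adjusted p = 0.0343) and pcxa (adjusted p = 0.0265) as well as fbp1b, among 18.9% of all genes. A fit by edgeR on the 6 libraries of these groups alone called pck1 (adjusted p = 0.0419) and g6pca.2 (0.0184) as well as fbp1b. The share of all genes called in that fit is not given here, so these calls have no background to be set against.

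With TDCIPP and DOX together against DOX alone, no member was called by edgeR, against 2.1% of all genes. The largest difference relative to its error was that of fbp1b, -1.07 ± 0.34 (SE; edgeR adjusted p = 0.107), the 1 member lower at an unadjusted p under 0.05, against 14% of all genes. DESeq2 called it (adjusted p = 0.0362) among 13.1% of all genes, while in the authors' deposited table its adjusted p was 0.965. Groups did not overlap for fbp1a, with 2.76 to 3.67 CPM in TDCIPP with DOX and 4.27 to 6.02 CPM in DOX, 1 of 7 members, against 13.6% of all genes. In deposited FPKM it was fbp1b in place of fbp1a, against 5.04% of all genes. The interval for g6pca.2 was wide, from -2.05 to 1.96, around a log2 fold change of -0.04, and for pck1 it ran from -3.37 to 1.32. Differences of either sign within those intervals were not resolved. All 4 tested endocrine pancreas markers and all 6 tested intestine markers were higher than in DOX at an unadjusted p under 0.05, none called. Their part in the values of the members was not tested.

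Set against TDCIPP alone, the members parted in TDCIPP with DOX. The level of fbp1b fell, with a mean of 136 ± 36.9 CPM in TDCIPP with DOX and 393 ± 142 CPM in TDCIPP (SD, n = 3 each), a log2 fold change of -1.54 ± 0.35 (SE; edgeR adjusted p = 0.0322). It was the 1 member called, against 4.18% of all genes called, 2.16% lower. This call was lost with library totals (-0.89, edgeR adjusted p = 0.0656), in a fit of these 2 groups alone (0.0522), and on leaving out TDCIPP replicate 2 (0.124), TDCIPP replicate 3 (0.111) or replicate 1 (0.132), 2 (0.0579) or 3 (0.138) of TDCIPP with DOX. In contrast, pck1 and g6pca.2 were higher in every library of TDCIPP with DOX than in any of TDCIPP, 2 of 7 members, against 14.7% of all genes, and fbp1b was lower without overlap, against 15.4%. In deposited FPKM 4 members, pck1, pck2, g6pca.1 and g6pca.2, were higher without overlap, against 44% of all genes, and fbp1b overlapped.

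The mean of pck1 was 66.3 ± 38.5 CPM in TDCIPP with DOX and 4.61 ± 6.13 CPM in TDCIPP (SD, n = 3 each), a log2 fold change of 3.85 ± 1.19 (SE) with an edgeR adjusted p of 0.104. It passed the threshold with library totals (4.52, edgeR adjusted p = 0.0328), without TDCIPP replicate 1 (5.96, 0.0402) and in DESeq2 (adjusted p = 0.00189, with 9.07% of all genes called). At an unadjusted p under 0.05 pck1 and g6pca.2 were higher, against 9.36% of all genes, and fbp1b lower, against 8.59%. The log2 fold change of g6pca.2 was 2.14 ± 0.95 (edgeR adjusted p = 0.266). Those of pck2, pcxa, fbp1a and g6pca.1 lay between -0.69 and 0.42 and were not called. Summed endocrine pancreas markers were 1.49 to 8.24 CPM in TDCIPP with DOX and 0.195 to 1.04 CPM in TDCIPP, and their part in these values was not tested.

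The interaction asks whether the effect of TDCIPP differed with DOX present. No member was called by edgeR, against 0.0261% of all genes called. The log2 estimate was 5.42 ± 1.6 for pck1 (SE; edgeR adjusted p = 0.327), 3.92 ± 1.34 for g6pca.2 (0.355) and 1.61 ± 0.61 for g6pca.1 (0.375), all 3 with 95% intervals above 0. At an unadjusted p under 0.05 these 3 of 7 members were higher, against 5.51% of all genes. For fbp1b the estimate was -0.49 ± 0.48, and the interval, -1.54 to 0.57, held 0. DESeq2 called pck1 (5.45, adjusted p = 0.01) and 1.61% of all genes. Markers of other tissues moved in the same interaction: all 4 tested endocrine pancreas markers (median log2 estimate 10.18) and all 6 tested intestine markers (8.37) were higher at an unadjusted p under 0.05. All 9 tested exocrine pancreas markers had estimates above 0 (median 2), none at an unadjusted p under 0.05. The part of these markers in the values of pck1, g6pca.2 and g6pca.1 was not tested. Without the 4 libraries singled out for oocyte or intestine transcripts the estimates were 7.76 for pck1, 4.83 for g6pca.2 and 1.5 for g6pca.1, again with no call by edgeR (adjusted p = 0.446, 0.584 and 0.607).

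Ratios of reads between 2 enzymes within a library do not depend on scaling between libraries, and were compared with a 2-sided exact permutation test, which with 3 libraries against 3 cannot give a p below 0.1. Cytosolic over mitochondrial carboxykinase, pck1 over pck2, was 0.24, 0.587 and 0.305 in TDCIPP with DOX, 0.071, 0.799 and 1.12 in DOX, 0.0637, 0.00684 and 0.00425 in TDCIPP, and 0.438, 2.83 and 1.79 in DMSO. The TDCIPP ratios lay below those of the other groups. The log2 difference between TDCIPP and DMSO was -6.73 ± 1.45 (SE; exact permutation p = 0.1).

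The ratio of g6pca.2 to g6pca.1 reads was 9.68, 11.2 and 15.6 in TDCIPP with DOX, 1.84, 27.9 and 19.7 in DOX, 5.75, 1.02 and 2.89 in TDCIPP, and 32.7, 40.2 and 20.5 in DMSO. The neighbouring genes thus did not keep 1 proportion: TDCIPP and DMSO ratios did not overlap, nor did those of TDCIPP with DOX and DMSO. The ratio of fbp1b to pck2 was 0.777, 0.958 and 0.651 in TDCIPP with DOX, 1.37, 1.36 and 1.21 in DOX, 1.27, 2.6 and 2.29 in TDCIPP, and 2.4, 2.21 and 2.57 in DMSO. Its 3 values in TDCIPP with DOX were below all 9 others, and its log2 difference from DMSO was -1.6 ± 0.17 (SE; exact permutation p = 0.1). Against pcxa in place of pck2 that difference was -1.6 ± 0.11. With pcxa the separation from all others did not hold. The ratio in DOX replicate 3, 0.762, lay within the 0.727 to 0.89 of TDCIPP with DOX. The ratio of fbp1b to fbp1a had geometric means of 41.1 in TDCIPP with DOX, 56.1 in DOX, 75.9 in TDCIPP and 103 in DMSO.

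**Figure D4:**
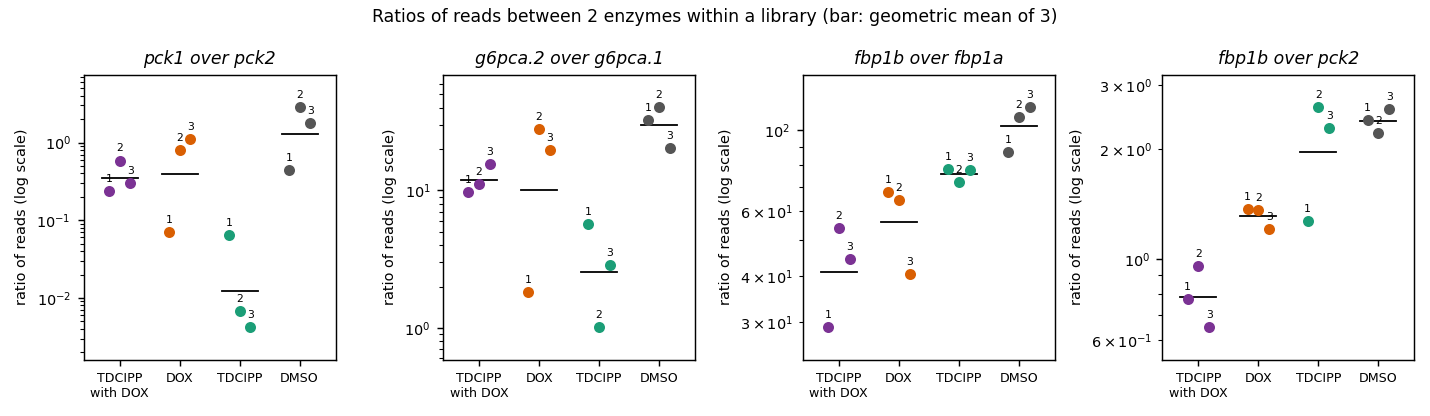
Ratios of reads between 2 enzymes within each library (log axes; a point is 1 library, numbered by replicate, and a bar is the geometric mean of 3). The 3 ratios of fbp1b to pck2 in TDCIPP with DOX, 0.651 to 0.958, are below those of every other library.

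Genes whose log2 CPM followed pck1 over the 12 libraries were sought among 7383 genes as a description, with no p. The libraries share group and depth, so that such correlations hold the differences between groups. The highest Pearson r was 0.95, for slc25a25a, a mitochondrial carrier of adenine nucleotides and phosphate, then 0.9 for mafb, dyrk1ab and ets2 and 0.87 for mycb. Pearson r does not measure the size of a change, and dyrk1ab ranged only from 8.81 to 13.8 CPM over the 12 libraries. The level of slc25a25a was 78.9, 229 and 116 CPM in TDCIPP with DOX, 86.6, 331 and 239 CPM in DOX, 28.2, 27.3 and 29.3 CPM in TDCIPP, and 246, 414 and 583 CPM in DMSO. As for pck1, the TDCIPP libraries were below all others. For g6pca.2 the highest r was 0.94, for gadd45ba, a stress-induced gene, and 0.89 each for tsc22d3, mycb, cebpd and onecutl. The level of cebpd was 89.9, 97.3 and 107 CPM in TDCIPP with DOX, 25.3, 170 and 101 CPM in DOX, 135, 47.4 and 75 CPM in TDCIPP, and 282, 302 and 391 CPM in DMSO. DOX replicate 1 was the lowest of the 12 libraries for cebpd, as it was for tsc22d3 with 35.5 CPM. Between pck1 and g6pca.2 r was 0.89 over the 12 libraries and 0.85 after subtracting group means, while pck1 and fbp1b had r of 0.03 and -0.31.

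Genes that surround these enzymes were read from 8 lists of 4 to 29 tested genes. With TDCIPP alone against DMSO, edgeR called no gene of any list. The control list held 29 tested transcription factors, cofactors and kinases that act on these promoters in mammals. At an unadjusted p under 0.05, 1 of these was higher, against 6% of all genes, and 8 were lower, against 4.02%. The list's median log2 fold change was -0.36, against 0.02 for all genes. On leaving out DMSO replicate 1, 2 of the 29 were called. The list of opposing steps held 17 tested genes for irreversible steps of glycolysis and their regulators. At an unadjusted p under 0.05, 7 of the 17 were higher with TDCIPP alone, against 6% of all genes, and 0 were lower. Their median log2 fold change was 0.82, against 0.02 for all genes.

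Several enzymes of the opposing direction rose with TDCIPP and DOX against DMSO. In the list of opposing steps, the irreversible steps of glycolysis and their regulators, 5 of 17 tested genes rose and 1 fell, against 5.33% of all genes higher and 6.37% lower. The phosphofructokinase gene pfkpa had a mean of 37.2 ± 19.6 CPM in TDCIPP with DOX and 1.48 ± 0.899 CPM in DMSO (SD, n = 3 each), a log2 fold change of 4.65 ± 0.55 (SE; edgeR adjusted p = 0.00181). Hexokinase hk1 rose by 2.29 ± 0.36 (0.00347) and pfkfb3, which makes the allosteric activator of phosphofructokinase and inhibitor of fructose-1,6-bisphosphatase, rose by 3.28 ± 0.63 (0.00783). Both were low, with means of 5.91 and 7.51 CPM in TDCIPP with DOX, against 1.2 and 0.771 CPM in DMSO. The related gene pfkfb1 fell, with a log2 fold change of -1.52 ± 0.33 (edgeR adjusted p = 0.0131). Of the 17 genes 13 had log2 fold changes above 0 and 4 below. Summed neutrophil and macrophage markers were also higher in every library of TDCIPP with DOX than in any of DMSO. Their part in the rises of pfkpa, hk1 and pfkfb3 was not tested. The pyruvate kinase gene pklr and the phosphofructokinase gene pfklb, with higher levels in DMSO than the risers named here, did not rise and were not called. In TDCIPP with DOX pklr had 1271, 921 and 925 CPM, against 1404, 1634 and 1556 CPM in DMSO. For pfklb these were 17.1, 16.4 and 17.8 CPM, against 21.1, 29 and 31.9 CPM. Among the enzymes that serve both directions 5 of 15 rose and 2 fell. The main gapdh gene fell to 755 ± 283 CPM in TDCIPP with DOX, against 3940 ± 498 CPM in DMSO (log2 fold change -2.38 ± 0.29, edgeR adjusted p = 0.00181). Its low-expressed counterpart gapdhs rose to 59.4 ± 8.36 CPM in TDCIPP with DOX, against 12.8 ± 2.81 CPM in DMSO (2.21 ± 0.28, 0.00193), and eno1a and pgam1b rose by 2.5 and 1.42 on the log2 scale.

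The list of pyruvate entry and carbon shuttles held malate dehydrogenases, aspartate aminotransferases, and carriers that bring pyruvate into mitochondria and oxaloacetate carbon out of them. In the same comparison 4 of its 11 tested genes fell and none rose: mdh1ab (-1.85 ± 0.36, edgeR adjusted p = 0.00816), mdh1aa (-1.25 ± 0.35, 0.0403), mdh2 (-0.87 ± 0.24, 0.0365) and slc25a10 (-0.78 ± 0.19, 0.0247). Over all genes 6.37% were called lower and 5.33% higher. With library totals mdh2 and slc25a10 turned to 0.16 and 0.24, below the shifted median of 1.11. Leaving out any 1 of the 6 libraries left 1 or 2 of the 4 calls, without the filter on low counts 1 was left, and without the 4 libraries with oocyte or intestine transcripts the count was again 4. On leaving out 1 library the call of mdh1ab held in all 6 settings and that of slc25a10 in 1. Those of mdh2 and mdh1aa were lost in all 6. Of 10 genes that feed lactate, alanine, serine or glycerol into the pathway, ldha rose by 2.84 ± 0.63 (edgeR adjusted p = 0.0157), while gpd1b, a cytosolic glycerol-3-phosphate dehydrogenase (-1.15 ± 0.24, 0.012), and agxtb, an alanine-glyoxylate aminotransferase (-1.52 ± 0.36, 0.0202), fell. On leaving out 1 library these 3 calls dropped to between 0 and 3. The call of ldha was lost without DMSO replicate 1, DMSO replicate 2 or replicate 3 of TDCIPP with DOX, the library with the highest intestine markers. That library had 143 CPM of ldha and the other 2 of its group 34.7 and 32.3 CPM, and without it the log2 fold change was 1.78. The call of gpd1b was lost in 3 and that of agxtb in 4 of the 6 settings.

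The control genes called with TDCIPP and DOX against DMSO were all lower, 4 of 29, against 6.37% of all genes lower and 5.33% higher. They were nr1d1, a clock repressor (log2 fold change -2.69 ± 0.4, edgeR adjusted p = 0.00283), klf15, a fasting-induced activator in mouse liver (-1.94 ± 0.37, 0.00723), the coactivator ppargc1b (-1.33 ± 0.25, 0.00733) and klf9, a glucocorticoid-induced factor (-2.06 ± 0.5, 0.0224). The coactivator ppargc1a had a log2 fold change of 0.3 ± 0.82 and was not called (adjusted p = 0.867). Among 13 hormone receptors and insulin signalling genes irs2b rose by 1.42 ± 0.24 (edgeR adjusted p = 0.00452), and igfbp1a, an insulin-repressed gene in mammals, was at -0.28 ± 0.81 (0.877). Of these 13 genes 9 had log2 fold changes below 0, with a list median of -0.39, against 0.1 for all genes. At an unadjusted p under 0.05, 5 were lower, against 12.9% of all genes, and 1 was higher. In the glycogen list 2 of 10 rose, ppp1r3b (0.84 ± 0.2) and ugp2b (0.8 ± 0.2), and ppp1r3ca, a glycogen-targeting subunit of protein phosphatase, fell by 2.65 ± 0.44 (edgeR adjusted p = 0.00415). Of the 23 calls named from the lists in this comparison, 13 held on leaving out each of the 6 libraries. Of the genes in this paragraph, klf9, ppp1r3b and ugp2b each lost the call in 4 of the 6 settings. In the list of opposing steps 3 calls of 6 were left without replicate 1 of TDCIPP with DOX, where pfkfb1 lost its call, and 4 or 5 without any other library. In TDCIPP alone, where none of the control genes was called, klf9 had at most 9.31 CPM, klf15 24.6 CPM and nr1d1 23.8 CPM. The lowest DMSO libraries of these genes had 33.1, 74.4 and 73.7 CPM. The TDCIPP and DMSO libraries overlapped for ppargc1b, with 29.7 to 36 CPM and 30.6 to 49.1 CPM. Sampling time of day is not given in the labels.

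**Figure D5:**
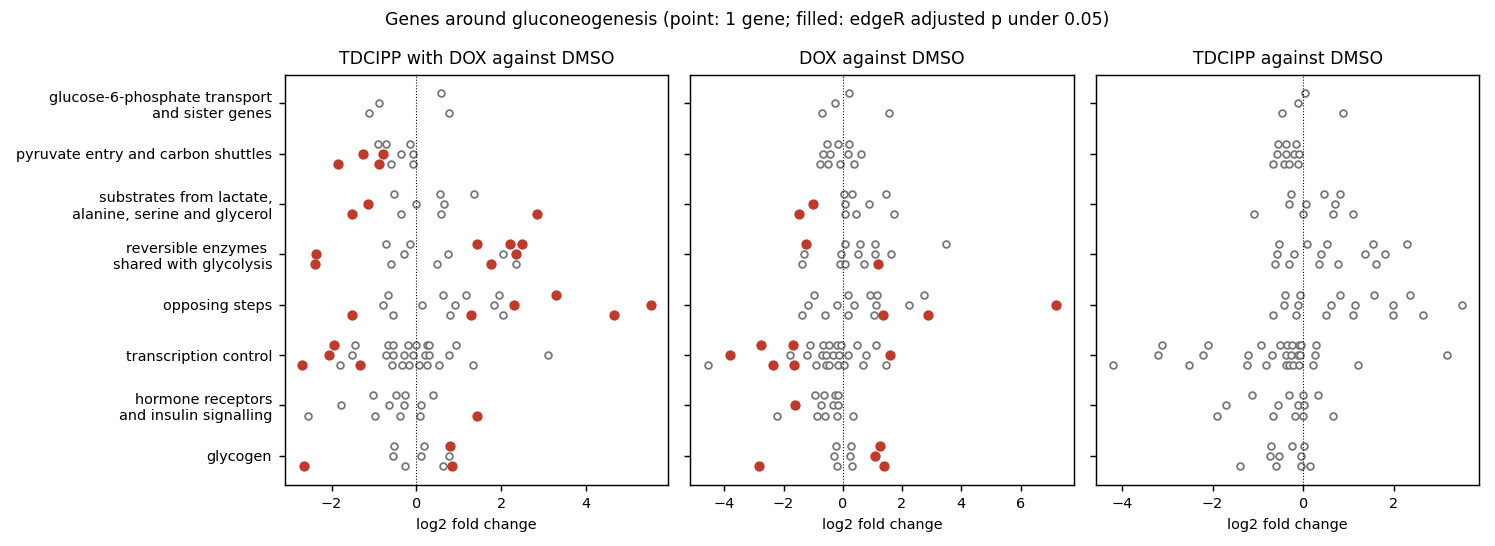
Log2 fold changes of genes in 8 lists around gluconeogenesis against DMSO (a point is 1 gene; filled: edgeR adjusted p under 0.05). With TDCIPP and DOX, 5 of 17 genes of the opposing steps rose and 4 of 11 genes of pyruvate entry and carbon shuttles fell, while with TDCIPP alone no point is filled.

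With DOX alone against DMSO, 3 of 17 genes of the opposing steps rose and none fell, against 3.93% of all genes higher and 2.93% lower. Glucokinase, gck, whose product phosphorylates the glucose that glucose-6-phosphatase releases, had 386, 153 and 287 CPM in DOX and 1.41, 0.339 and 3.81 CPM in DMSO. These values did not overlap, with a log2 fold change of 7.21 ± 1.45 (SE; edgeR adjusted p = 0.0214). The other 2 were pfkpa (2.87 ± 0.51, 0.0147) and pkma (1.36 ± 0.37, 0.0499). In TDCIPP with DOX gck had 110, 26.7 and 121 CPM and rose by 5.53 ± 1.34 over DMSO (edgeR adjusted p = 0.0229). In a fit of the DOX and DMSO libraries alone 1 of the 3 calls was left, and leaving out 1 of these 6 libraries left 0 to 3. The call of gck was lost on leaving out any 1 DMSO library, and that of pfkpa without DMSO replicate 1 or 2. For pkma it was lost without any 1 DMSO library, and also without DOX replicate 3. The DOX libraries had 27, 29.9 and 82.1 CPM of pkma. Dropping replicate 3, where oocyte markers were highest, lowered the log2 fold change of pkma to 0.67.

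The control list with DOX alone held 1 higher and 5 lower of 29 genes, against 3.93% of all genes higher and 2.93% lower. Those named by the smallest p were klf9 (-3.82 ± 0.54, edgeR adjusted p = 0.00687), ppargc1b (-1.65 ± 0.25, 0.00922), nr1d1 (-2.35 ± 0.39, 0.0109) and nr1d2a (-2.75 ± 0.47, 0.0122). In a fit of the DOX and DMSO libraries alone none of the 29 was called. Of the glucagon receptor genes gcgra and gcgrb, gcgrb fell by 1.61 ± 0.38 (edgeR adjusted p = 0.0341), with a mean of 1.65 ± 0.578 CPM in DOX and 5.02 ± 1.26 CPM in DMSO. Among the substrate genes gpd1b (-1.02 ± 0.24, 0.0328) and agxtb (-1.49 ± 0.36, 0.0344) fell, and gapdh fell by 1.26 ± 0.28 (0.028) while pgam1b rose by 1.2 ± 0.27 (0.029). In the glycogen list ugp2b (1.38 ± 0.2, 0.00784), ppp1r3b (1.09 ± 0.2, 0.0151) and ppp1r3cb (1.24 ± 0.31, 0.038) rose and ppp1r3ca fell by 2.84 ± 0.45 (0.00992). Leaving out each of the 6 libraries in turn, the calls of klf9, ppargc1b, nr1d1, nr1d2a, ugp2b and ppp1r3ca held throughout, 6 of the 16 named from the lists in this comparison. Those of gcgrb, gpd1b, agxtb and ppp1r3cb were lost in 5 of the 6 settings, any DMSO library among them. Those of gapdh and pgam1b were lost in 4 and that of ppp1r3b in 2.

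The factor cebpa, which drives liver metabolic genes in mammals, rose with TDCIPP and DOX against TDCIPP, though not clear of DMSO. Its DMSO libraries had 70.4, 89.5 and 53.8 CPM, above all TDCIPP libraries and overlapping those of TDCIPP with DOX. The level of cebpa was 79.4, 129 and 101 CPM in TDCIPP with DOX and 30, 29 and 30.7 CPM in TDCIPP (log2 fold change 1.78 ± 0.29, edgeR adjusted p = 0.00967). It was the 1 gene of 29 called in the control list, against 2.03% of all genes higher. Also called were gapdh (-2.07 ± 0.28, 0.00689), pfkpa (2.68 ± 0.5, 0.0169), irs2b (1.4 ± 0.24, 0.0127), akt2 (-0.92 ± 0.2, 0.028), ppp1r3b (1.57 ± 0.2, 0.00543), ppp1r3cb (1.36 ± 0.31, 0.0331) and ugp2b (0.79 ± 0.2, 0.0496). On leaving out 1 library the calls of gapdh and ppp1r3b held in all 6 settings and that of cebpa was lost without TDCIPP replicate 2. The calls of ppp1r3cb and ugp2b were lost in all 6, that of akt2 in 5, that of irs2b in 4 and that of pfkpa in 3. Against DOX, gapdhs (2.28 ± 0.28, edgeR adjusted p = 0.0176) and irs2b (2.01 ± 0.25, 0.0176) rose, and mdh1ab (-1.68 ± 0.35, 0.0451) and foxo3a (-1.59 ± 0.34, 0.0451) fell in TDCIPP with DOX, where 0.71% of all genes were called higher and 1.39% lower. In that comparison a fit of its 2 groups alone called no gene of the whole table, and on leaving out 1 library each of these 4 calls was lost in 4 or 5 of 6 settings. The 4 genes for glucose-6-phosphate transport and sister enzymes (slc37a4a, slc37a4b, g6pc3 and pcxb) had no call by edgeR in any comparison. The level of g6pc3, the broadly expressed glucose-6-phosphatase, was 5.19, 4.66 and 3.38 CPM in TDCIPP with DOX, 4.36, 2.96 and 2.85 CPM in DOX, 3.62, 2.43 and 3.02 CPM in TDCIPP, and 3.13, 2.86 and 2.82 CPM in DMSO. The comparisons with DMSO share its 3 libraries, and those of TDCIPP with DOX share that group, so that calls in common between them are not separate evidence.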

How the data were processed

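The authors deposited 1 table of the whole series with raw read counts per gene, FPKM values (scaled to gene length and library size) and their own p-value columns, which hold adjusted p-values per comparison, per the file headers. HISAT is named in the submitters' processing notes; no source used here gives the counting tool, the strand setting or the genome build. In the deposited FPKM values 46.4% of those above 0 could be recomputed from the count, the library total and the length column within 0.1%. For pck1, g6pca.1, g6pca.2, fbp1b and pcxa the FPKM imply a shorter length than that column. The lengths behind the remaining values were not examined.

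The raw counts as deposited were tested with edgeR 4.0.16 in R 4.3.3 (TMM factors, filterByExpr by group, glmQLFit and glmQLFTest, 2-sided): 1 model over the 12 libraries with a mean per group, Benjamini-Hochberg adjustment over 19160 genes and a threshold of 0.05. SE is the fold change over the root of F. The biological coefficient of variation was 54.5%. The procedure was run on simulated counts that shared a common mean profile apart from genes changed in TDCIPP with DOX. Such counts lack the differences in TMM factors between the groups, so they do not test the scaling. Correlations used log2 (CPM + 0.5) of genes with a mean of at least 5 CPM. List entries were matched by symbol, with older names through RefSeq and Ensembl name tables; up to 4 called genes per list and comparison, those of the smallest adjusted p, were named, and ppargc1a, igfbp1a, ins and g6pc3 were added after their values were seen. The members and lists were chosen with earlier results of these data known. Alternatives were DESeq2 1.42.0, its size factors in edgeR, library totals, no filter, the groups compared alone, a replicate block, leaving out each library, and leaving out the 4 libraries with oocyte or intestine transcripts. Same-numbered libraries of different groups correlated between -0.225 and 0.182 in their deviations from group means, so the numbers were not used as pairs. No sequences are printed, as no sequence tables were used here.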

Additional observations from a re-analysis of the deposited data

Results flagged for a closer look

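The estimated effect of DOX on g6pca.2 was below 0 without TDCIPP and above 0 with it, and neither was called by edgeR. DOX against DMSO gave -1.78 on the log2 scale (edgeR adjusted p = 0.245, 95% interval -3.85 to 0.28). TDCIPP with DOX against TDCIPP gave 2.14 (edgeR adjusted p = 0.266, 95% interval 0.05 to 4.23). Every DOX library (31.9 to 772 CPM) lay below every DMSO library (863 to 2002 CPM), while every library of TDCIPP with DOX (343 to 586 CPM) lay above every TDCIPP library (19.6 to 190 CPM). The interaction was 3.92 ± 1.34 on the log2 scale and missed edgeR's threshold (adjusted p = 0.355), as it did in DESeq2 (adjusted p = 0.0562). The separation of DOX from DMSO holds with TMM scaling; in deposited FPKM DOX replicates 2 and 3 had 469 and 576 FPKM of g6pca.2, above the 427 FPKM of DMSO replicate 1. All 4 tested endocrine pancreas markers and all 6 tested intestine markers were also higher in the interaction at an unadjusted p under 0.05, with medians of 10.18 and 8.37. All 9 tested exocrine pancreas markers had interaction estimates above 0 (median 2), none at an unadjusted p under 0.05. The part of these markers in the interaction of g6pca.2 was not tested. The estimate for g6pca.2 kept its direction on leaving out each of the 12 libraries in turn, between 3.41 and 4.74. Groups of 3 are too small for a check of single outlying libraries.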

How the results depend on the processing

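DESeq2 in place of edgeR called 2 members in TDCIPP against DMSO, 2 in DOX against DMSO, 3 in TDCIPP with DOX against DMSO, 1 in TDCIPP with DOX against DOX, 2 in TDCIPP with DOX against TDCIPP and 1 in the interaction; over all genes it called 419, 2715, 3496, 2176, 1677 and 286, against 8, 1315, 2241, 403, 801 and 5 in edgeR. With the libraries of the groups compared alone, 3 members were called in TDCIPP with DOX against DMSO and 0 in TDCIPP with DOX against TDCIPP. In such fits all-gene counts were 97 in DOX against DMSO and 0 in TDCIPP with DOX against DOX. Those counts belong to other comparisons and are no background for the 3 members. Leaving out 1 library left 0 to 2 members called in TDCIPP with DOX against TDCIPP, 1 in TDCIPP with DOX against DMSO and 0 in the other comparisons. The replicate block, fitted although the numbers do not pair the libraries, called 1 member in TDCIPP with DOX against DMSO and against TDCIPP and 0 elsewhere, as without it. Library totals called 6 genes in TDCIPP against DMSO, 5033 (4802 higher) in DOX against DMSO, 7271 (6966 higher) in TDCIPP with DOX against DMSO, 142 (129 higher) in TDCIPP with DOX against DOX and 2724 (2534 higher) in TDCIPP with DOX against TDCIPP. Their medians over all genes were 0.39, 0.83, 1.11, 0.23 and 0.64, against 0.02, 0.12, 0.1, -0.08 and -0.01 with TMM. The split of calls into higher and lower thus depends on the scaling. Without the filter on low counts 17, 822, 143 and 16 genes were called in TDCIPP against DMSO, DOX against DMSO, TDCIPP with DOX against DOX and the interaction; without the 4 libraries with oocyte or intestine transcripts 0, 684, 57 and 0.

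Changes of sign were limited to values not called, apart from mdh2 (0.16) and slc25a10 (0.24) in TDCIPP with DOX against DMSO under library totals. Under that scaling fbp1a and pcxa were at 0.19 each in TDCIPP against DMSO; pck2, fbp1a and pcxa at 0.43, 0.42 and 0.52 in DOX against DMSO; pck2, g6pca.1, fbp1a and pcxa at 0.48, 0.5, 0.16 and 0.47 in TDCIPP with DOX against DMSO; pck2 and g6pca.2 at 0.05 and 0.2 in TDCIPP with DOX against DOX; and pck2 and pcxa at 0.49 and 0.28 in TDCIPP with DOX against TDCIPP. That setting drops the TMM factors, which also differed within groups, with 0.984, 0.945 and 1.52 in DOX. As given above, the medians over all genes were above 0 in these comparisons under that scaling. The difference of g6pca.2 between TDCIPP with DOX and DOX was 0.03 without the filter, 0.12 with the replicate block and 0.22 without the 4 libraries, and ran from -0.54 to 0.54 on leaving out 1 library. Without the 4 libraries fbp1a in TDCIPP against DMSO was at 0.06, g6pca.1 in TDCIPP with DOX against DMSO at 0.25, and the interactions of pck2 and pcxa at -0.22 and 0.09; the cause was not tested. Leaving out 1 library gave -0.42 to 0.13 for fbp1a in TDCIPP against DMSO, -0.47 to 0.02 for pck2 in DOX against DMSO, -0.91 to 0.01 for g6pca.1 in TDCIPP with DOX against DMSO and -0.18 to 0.31 for the interaction of pck2. With 3 libraries a group and a coefficient of variation of 54.5%, differences within replicate spread are not resolved; g6pcb and fbp2 had too few reads for the filter.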
